A study of Mus musculus with 13 samples.

Results

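The genes of the phagocyte NADPH oxidase described here were Cybb, Cyba, Ncf1, Ncf4, Rac1 and Rac2, chosen by name, and all 6 were found among the 55536 genes of the deposited tables. They were measured by poly(A)-selected RNA-seq in neutrophils from the bone marrow of wild-type mice. One group was mock treated (mock, n = 2). In the other, intact cells in HBSS, a balanced salt buffer, met RNase A from outside during 10 min at 37 °C (exRNaseA, n = 2). Both groups carry the same RNase A protocol text in their labels, and their treatment labels were used to tell them apart. Strain, age and sex of the wild-type mice, and whether animals were pooled, are not stated. The series calls the libraries biological replicates but does not say that they came from separate animals, and so the p-values take in only how far these 4 samples scatter, which may be technical. The comparison asked whether RNase A outside the cell altered the messages inside it.

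The oxidase passes electrons from NADPH across the membrane to oxygen and so makes superoxide, the first product of the oxidative burst that neutrophils direct at microbes. Cybb encodes gp91phox, also called NOX2, the subunit that carries the electrons, and Cyba encodes p22phox, its membrane partner. In resting cells the cytosolic subunits stay apart from this pair. Ncf1 encodes p47phox, the organizer that is phosphorylated on activation and docks on Cyba, and Ncf4 encodes p40phox, which binds a phosphoinositide of the phagosome membrane. Rac1 and Rac2 are small GTPases, and in their GTP-bound form Rac proteins join the complex and switch it on. Rac2 is made mainly in blood cells, while Rac1 is made in nearly all cells. Inherited loss of oxidase subunits causes chronic granulomatous disease.

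The genes lie on chromosomes 5, 8, 15 and X (coordinates of RefSeq on GRCm38.p6, the same build as mm10). Cybb (ENSMUSG00000015340.10) lies on chromosome X, 9435252 to 9487766, and Cyba (ENSMUSG00000006519.11) on chromosome 8, 122424771 to 122432940. Ncf1 (ENSMUSG00000015950.13) lies on chromosome 5, 134220053 to 134229628, and Rac1 (ENSMUSG00000001847.14) on the same chromosome, 143505481 to 143528031. Ncf4 (ENSMUSG00000071715.12) and Rac2 (ENSMUSG00000033220.7) share chromosome 15, at 78244164 to 78262582 and 78559169 to 78572783. The files list 5 transcripts for Cybb, 3 for Cyba, 7 for Ncf1, 6 for Ncf4, 4 for Rac1 and 3 for Rac2.

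The RefSeq promoter table held 3 of the 6 genes, and the 100 bases before the start of each are shown because these genes stand at different levels in the same cells (GRCm38.p6, all on the reverse strand, written in the direction of the gene). Capitals mark matches to GGGCGG, the GC box, and to CCAAT, the CCAAT box, on either strand. The Cybb stretch lies inside the annotated span of the gene, before the start that the table uses.
Cybb, chrX:9469325-9469424: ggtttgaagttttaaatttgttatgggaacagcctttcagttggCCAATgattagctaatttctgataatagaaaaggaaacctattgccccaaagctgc
Cyba, chr8:122432941-122433040: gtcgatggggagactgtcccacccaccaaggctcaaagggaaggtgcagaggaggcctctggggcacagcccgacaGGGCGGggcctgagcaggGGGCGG
Ncf1, chr5:134229626-134229725: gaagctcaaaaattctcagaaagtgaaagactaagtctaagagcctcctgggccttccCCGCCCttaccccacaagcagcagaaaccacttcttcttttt

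Over the whole window of the table, 250 bases before to 50 bases after the start, the membrane partners differed in base composition. The Cybb window was 35.3% G and C, and 3.98% of the 32851 windows of the table had less. The Cyba window was 60.7% G and C, above 72.2% of all windows, and the Ncf1 window 54.0%, against a median of 52.7% over all windows. The Cyba window held GGGCGG at 24 to 19 and at 6 to 1 bases before the start, and Ncf1 held it on the other strand at 42 to 37 bases before the start. A match to GGGCGG on either strand was present in 35.7% of all windows. Cybb held CCAAT at 56 to 52 bases before the start, a match found in 37.4% of windows. It also held GAGGAA, the core bound by PU.1 in many myeloid promoters, on the other strand at bases 10 to 15 after the start, a match found in 28.3% of windows. None of the 3 motifs overlapped another in these windows. Matches are descriptions of the letters and not evidence of binding.

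The libraries held between 20661683 and 23722494 expected counts (reads assigned to genes by RSEM). Of 12 neutrophil markers all were tested, and they summed to between 286408 and 287266 TPM in the mock and between 274478 and 287580 in the exRNaseA libraries. TPM is the share of a transcript in all transcripts, scaled to a fixed total and corrected for transcript length, and so allows levels of different genes to be compared. Cells other than neutrophils also express the oxidase genes. Monocyte and macrophage markers summed to between 1070 and 1083 TPM in mock and between 1069 and 1087 in exRNaseA libraries, of which Ly6c2 made up between 952 and 976 TPM. B cell markers summed to between 1826 and 1837 TPM over the 4 libraries, of which Ighm made up between 1402 and 1417 TPM. Markers of eosinophils, basophils and mast cells summed to between 438 and 467 TPM, of which Prg2 made up between 396 and 423 TPM. T and NK cell markers summed to between 68.4 and 70.0 TPM, and dendritic cell markers to between 21.5 and 25.8. Erythroid markers summed to between 3030 and 3146 TPM. No marker of these 6 lists was at 0 in every library. The part of these cells in the oxidase levels was not tested, and in bulk samples fewer cells of a type and less RNA per cell cannot be told apart.

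The oxidase genes were abundant messages in these libraries. Rac2 ranked between 90 and 115 from the top by TPM among all genes, Ncf1 between 97 and 103, Cybb between 182 and 187, Cyba between 335 and 348, Ncf4 between 349 and 361 and Rac1 between 461 and 469. Together they held 3368 and 3267 TPM in mock and 3327 and 3447 TPM in exRNaseA libraries, which overlap. As a share of all expected counts they held 0.486% and 0.481% in mock and 0.481% and 0.483% in exRNaseA libraries.

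**Figure D1:**
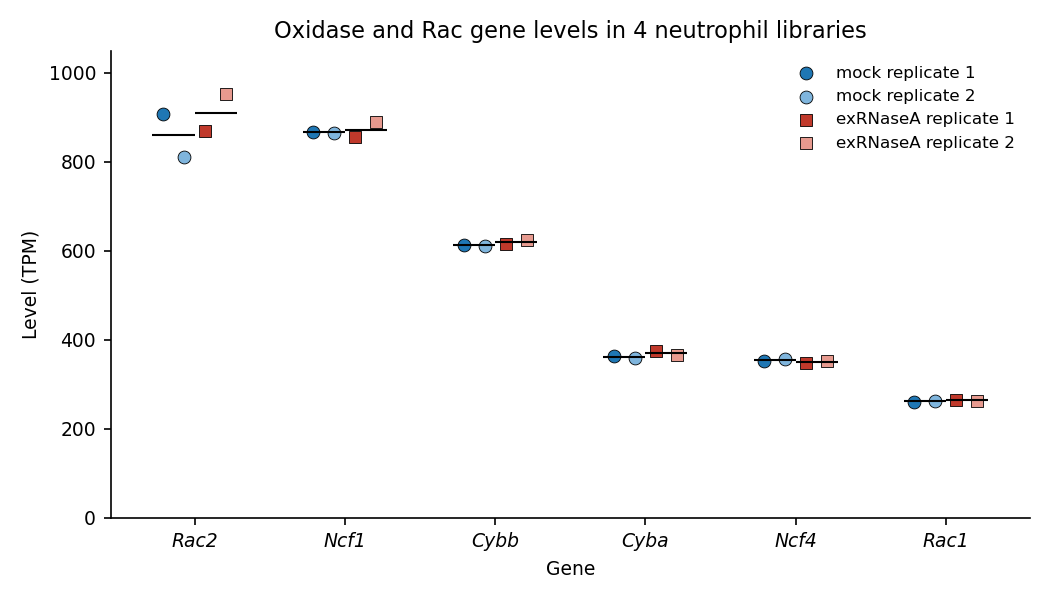
Level in TPM of each gene (horizontal axis) in each of the 4 libraries, with circles for mock, squares for exRNaseA and a line at each group's mean. Rac2 and Ncf1 stand highest with overlapping values, Cybb lies between 612 and 624 TPM, and Rac1 is lowest in all 4 libraries.

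For the membrane pair, Cybb stood at 614 and 612 TPM in the mock libraries and at 616 and 624 TPM in the exRNaseA libraries. Cyba stood at 364 and 360 TPM in mock and at 375 and 366 TPM in exRNaseA libraries. On the TPM scale both genes were slightly higher in every exRNaseA library than in every mock library. The order turned for Cybb on counts scaled to library size with TMM factors (CPM), which were 1911 and 1896 in mock against 1884 and 1872 in exRNaseA libraries. Cyba overlapped between the groups on that scale, at 141 and 139 CPM in mock and 142 and 138 CPM in exRNaseA libraries. Cybb gathered between 39119 and 44982 reads per library and Cyba between 2869 and 3326. The mean Cybb transcript was between 4554 and 4567 bases long and the mean Cyba transcript between 739.9 and 740.7 bases. Per length the Cybb to Cyba ratio was 1.68 and 1.70 in mock and 1.64 and 1.71 in exRNaseA libraries, while the ratio of counts lay between 13.2 and 13.6. The groups' TPM ratios overlapped, at 1.69 ± 0.01 and 1.67 ± 0.04 (mean ± SD, n = 2 each; two-sided exact permutation p = 1, where 2 against 2 libraries cannot go below 0.333).

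For the cytosolic subunits, Ncf1 stood at 866 and 866 TPM in mock and at 855 and 890 TPM in exRNaseA libraries, which overlap. Its CPM were 1473 and 1478 in mock and 1434 and 1448 in exRNaseA libraries, both lower than both mock values. Ncf4 stood at 353 and 356 TPM in mock and at 347 and 352 TPM in exRNaseA libraries. Its CPM were 208 and 209 in mock and 201 and 197 in exRNaseA libraries. Ncf4 was lower in both exRNaseA libraries than in both mock libraries on both scales. The organizer exceeded Ncf4 in each library, with an Ncf1 to Ncf4 TPM ratio of 2.45 and 2.43 in mock and 2.46 and 2.53 in exRNaseA libraries. The exRNaseA ratios were both above the mock ratios (two-sided exact permutation p = 0.333, the smallest that 2 against 2 libraries can give).

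For the GTPases, Rac2 stood at 909 and 811 TPM in mock and at 869 and 952 TPM in exRNaseA libraries, the widest spread of the 6 genes. Rac1 stood at 261.1 and 262.9 TPM in mock and at 264.7 and 263.1 TPM in exRNaseA libraries, a narrow range without overlap. In CPM Rac2 was 933 and 893 in mock and 894 and 913 in exRNaseA libraries, and Rac1 was 235 and 227 in mock and 227 and 234 in exRNaseA libraries. The groups of both genes overlapped in CPM. Of the summed TPM of Rac1, Rac2 and Rac3, Rac2 made up 77.7% and 75.5% in mock and 76.6% and 78.4% in exRNaseA libraries, while Rac3, the third Rac gene, stood between 0.07 and 0.52 TPM. The Rac2 to Rac1 TPM ratio was 3.48 and 3.08 in mock and 3.28 and 3.62 in exRNaseA libraries, which overlap (two-sided exact permutation p = 0.667).

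The spread of Rac2 was wider in TPM than in scaled counts and went with its transcript length. RSEM gives each gene a length, the mean over its transcripts weighted by their estimated abundance, so it moves when reads are assigned to longer or shorter transcripts. TPM divides counts by transcript length, so at the same counts a longer mean length gives a lower TPM by construction. For Rac2 this length was 1630 and 1742 bases in the mock libraries and 1658 and 1580 bases in the exRNaseA libraries, and the library with the longest mean had the lowest TPM and that with the shortest the highest. The values of the groups overlapped. The coefficient of variation over the 4 libraries was 4.11% for the length, 6.80% for TPM and 2.10% for CPM. Among the 1164 tested genes with several transcripts and a mean of 100 TPM or more, 94.2% had a smaller coefficient of variation of length than Rac2, and the median was 1.06%. Rac1 varied by 2.33% in length, from 1411 to 1484 bases, and by 0.563% in TPM and 1.90% in CPM. Cyba (0.0424%), Cybb (0.125%), Ncf1 (0.721%) and Ncf4 (0.805%) were below that median. With each gene's effective length (the length less the span that a fragment takes up) held at its mean over the 4 libraries (a choice made once the data had been seen), the Rac2 to Rac1 ratio was 3.385 and 3.3590 in mock and 3.3586 and 3.334 in exRNaseA libraries. Both exRNaseA ratios were then below both mock ratios (two-sided exact permutation p = 0.333, the smallest possible), while in TPM the exRNaseA mean of 3.45 was above the mock mean of 3.28. Its SD over the 4 libraries was 0.0210, against 0.234 with the deposited lengths.

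**Figure D2:**
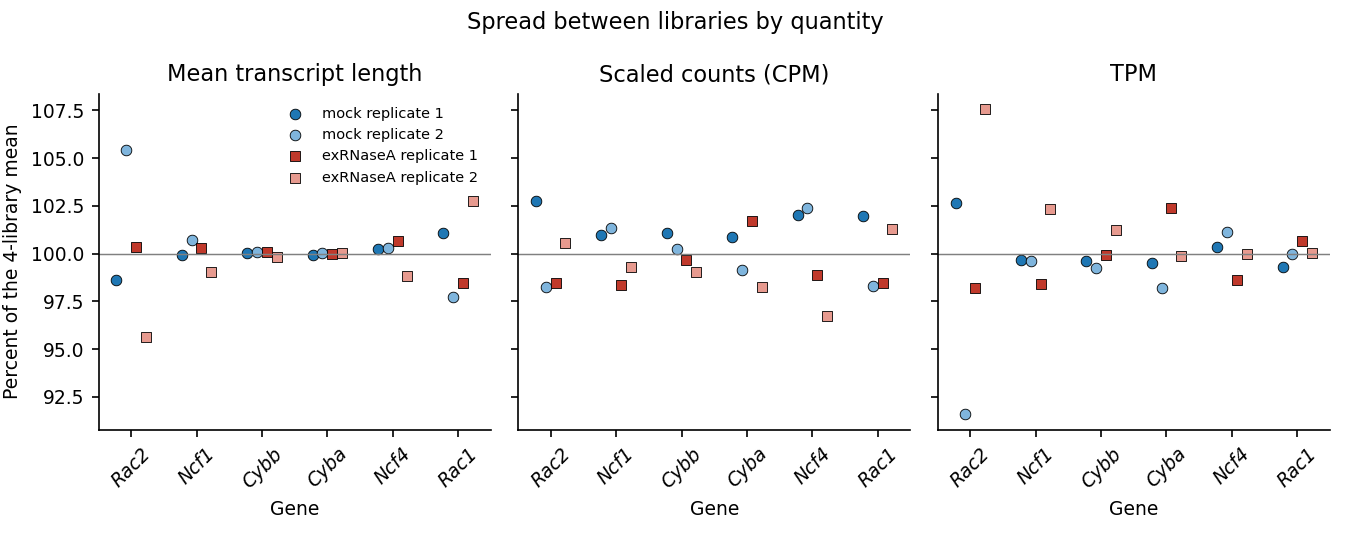
Mean transcript length, scaled counts (CPM) and TPM of each gene in each library, as a percentage of the gene's mean over the 4 libraries (vertical axis), with circles for mock and squares for exRNaseA. Rac2 has the widest spread in length (coefficient of variation 4.11%) and TPM (6.80%), while its scaled counts spread by 2.10%.

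Over the 4 libraries, Cyba spread no more than counting error in scaled counts, and the other 5 genes spread more. This spread takes in any difference between mock and exRNaseA, and whether it exceeds counting error was not tested. The coefficient of variation of CPM over the 4 libraries was 1.58% for Cyba, where counting error at its mean count would give 1.80%. It was 1.90% for Rac1 against 1.40%, 2.71% for Ncf4 against 1.49%, 0.867% for Cybb against 0.490%, 1.42% for Ncf1 against 0.558% and 2.10% for Rac2 against 0.707%. Within mock and within exRNaseA the SD of CPM was 10.7 and 8.49 for Cybb, against 16.4 over the 4 libraries. For Ncf1 these SDs were 3.68 and 9.74 against 20.8, and for Ncf4 0.528 and 3.09 against 5.52. For Cyba, Rac1 and Rac2 an SD within mock or exRNaseA was above that over the 4 libraries. The expected counts of Cybb, Cyba, Ncf4 and Rac2 were whole within 0.01 in all 4 libraries. Those of Ncf1 and Rac1 were whole in none, as RSEM gives where reads match more than 1 gene, and the levels of these genes are less certain to that extent.

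The order of the mean levels was Rac2, Ncf1, Cybb, Cyba, Ncf4 and Rac1. Rac2 and Ncf1 were not separated, since Rac2 was higher in 3 of 4 libraries and their difference of 15.7 ± 51.6 TPM (mean ± SD, n = 4) was smaller than its spread. Ncf1 exceeded Cybb 1.41-fold and Cybb exceeded Cyba 1.68-fold, each in 4 of 4 libraries. Cyba was above Ncf4 in 4 of 4 libraries by 13.95 ± 10.1 TPM, a 1.04-fold difference that is close to its spread. Ncf4 exceeded Rac1 1.34-fold in 4 of 4 libraries.

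None of the oxidase genes passed the test after RNase A outside the cells, and each stood close to its mock level. With p-values adjusted by Benjamini-Hochberg, the quasi-likelihood test of edgeR called 0 of the 6 genes, where 0.0917% of the 14184 tested genes were called (0.0212% higher and 0.0705% lower). At an unadjusted p under 0.05 stood 1 of the 6, Ncf4, and 6.35% of all tested genes. DESeq2, and limma on TPM or FPKM, also called 0 of the 6. The log2 change of exRNaseA minus mock was -0.064 for Ncf4 (SE 0.030, 95% interval -0.13 to -0.0020, adjusted p = 0.761, edgeR). It was -0.034 for Ncf1 (SE 0.021, interval -0.077 to 0.0091, adjusted p = 0.845, edgeR), and -0.019 for Cybb (SE 0.020, interval -0.060 to 0.022, adjusted p = 0.922, edgeR). Rac2 had -0.015 (SE 0.025, interval -0.067 to 0.037, adjusted p = 0.957, edgeR). Rac1 had -0.0038 (SE 0.030, interval -0.068 to 0.060) and Cyba -0.0014 (SE 0.033, interval -0.072 to 0.069), with adjusted p = 0.993 and 0.997 in edgeR. Of the 12 neutrophil markers 10 also had a negative value, and 10 had an unadjusted p under 0.05 (median -0.051, 0 called by edgeR), and their part in the oxidase values was not tested. Over all 7 marker lists, edgeR called 3 markers with no filter on low counts, where 149 of 24565 genes were called. With the replicate block it called 1 marker, where 55 of 14184 genes were called. Marker calls from fits that leave 1 library in a group are not counted here. The median of the 6 oxidase genes was -0.017, against -0.00032 over all tested genes, of which 50.1% had a negative value.

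These intervals hold for counts with TMM scaling. On that scale the lowest bound was a change of -8.39% for Ncf4, and the highest was a rise of 4.88% for Cyba. On log2(TPM + 1) the change of Rac2 was 0.084 (not called by limma), above the upper bound of 0.037 of its interval in counts. All 6 intervals lay within 0.25 on the log2 scale in either direction, as did those of 98% of the 1286 tested genes at a mean of 100 TPM or more. All 6 values were negative with TMM scaling, but Cyba, Rac1 and Rac2 turned positive when only library totals were used (0.017, 0.014 and 0.0033), as did 5 of the 6 in TPM, where Ncf4 alone stayed negative. On log2(TPM + 1) the median change was 0.030 over the 12949 genes that passed the TPM filter, and 0.014 over 24616 genes without that filter. Beside this, 5 genes that carry rRNA sequence summed to 5412 and 6447 TPM in mock and 1462 and 1508 TPM in exRNaseA libraries. Rescaled without them, the 6 oxidase genes summed to 3386 and 3288 TPM in mock and 3332 and 3452 TPM in exRNaseA libraries, which overlap. In CPM 3 of the 6 genes, Cybb, Ncf1 and Ncf4, were lower in both exRNaseA libraries than in both mock libraries and 0 were higher, where 18% of all tested genes were lower and 17.7% higher. In TPM Cybb, Cyba and Rac1 were higher in that sense and Ncf4 lower, where 24.8% of all tested genes were higher and 11.3% lower.

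**Figure D3:**
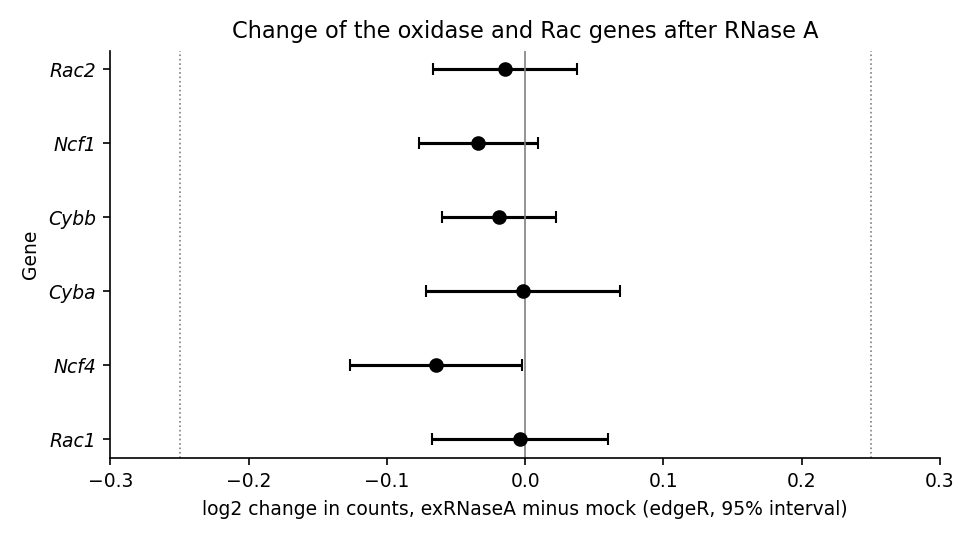
log2 change in counts, exRNaseA minus mock, with its 95% interval (horizontal axis) for each gene, from edgeR on 2 and 2 libraries. The dotted lines mark 0.25 in each direction, and all intervals lie between them, with Ncf4 lowest at -0.064.

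The other genes of the oxidase and of its supply were read from 7 lists holding 125 genes, of which 108 were tested. edgeR called 0 of them, and 6 of them (5.56%) had an unadjusted p under 0.05, near the 6.35% of all tested genes. DESeq2 and limma on TPM also called 0. Their median log2 change was -0.019, and 71 of the 108 were negative, where 50.1% of all tested genes were negative. Cebpb, a transcription factor of myeloid cells, stood at 106.6 and 102.4 TPM in mock and at 106.5 and 127.6 TPM in exRNaseA libraries. Leaving out exRNaseA replicate 1, which leaves 1 exRNaseA library, gave Cebpb a log2 change of 0.24 (edgeR). With all 4 libraries Cebpb had a log2 change of 0.13 (adjusted p = 0.731, edgeR).

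Of 14 further complex and NOX family genes 5 were tested and 0 were called (median -0.022). Rap1b, a small GTPase related to the Rap1a that copurifies with the cytochrome, stood at 467 and 455 TPM in mock and 457 and 469 TPM after exRNaseA (log2 change -0.025). Catalytic paralogs of NOX2 were at very low levels, with Nox1 between 0.09 and 0.15 TPM, Nox4 between 0 and 0.06 TPM and Nox3 and Duox1 listed at 0 in all 4 libraries. None of these 4 paralogs reached 1 TPM, beside levels of Cybb between 612 and 624 TPM.

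Of 24 tested kinases and lipid enzymes of oxidase activation 0 were called (median -0.017, 18 negative). Prkcd, a protein kinase C that phosphorylates p47phox, stood at 315 and 319 TPM in mock and 328 and 327 in exRNaseA libraries (log2 change 0.027). Syk, the tyrosine kinase downstream of Fc receptors and integrins, had a log2 change of 0.0046. Mapk3, which encodes ERK1, had the smallest p of the list (log2 change -0.053, adjusted p = 0.841, edgeR).

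Of 20 genes of Rac exchange factors, GTPase-activating proteins and dissociation inhibitors 0 were called (median -0.017, 12 negative). Arhgdib, the dissociation inhibitor of blood cells that holds Rac in the cytosol, was the most abundant, at 2365 and 2323 TPM in mock and 2259 and 2316 TPM in exRNaseA libraries. It had the smallest p (log2 change -0.073, SE 0.021, adjusted p = 0.473, edgeR), which did not pass. Arhgdia, the widely expressed inhibitor, stood at 156 and 154 TPM in mock and 156 and 159 TPM in exRNaseA libraries (log2 change -0.0065).

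Of 13 tested genes of NADPH supply 0 were called (median -0.024, 10 negative). Taldo1 and Tkt, the transaldolase and transketolase of the pentose phosphate pathway, had log2 changes of -0.038 and -0.041. G6pdx, the enzyme that makes NADPH in the first step of that pathway, had the smallest p, with a log2 change of -0.064 (adjusted p = 0.753, edgeR). Its levels of 251 and 241 TPM in mock and 246 and 243 TPM after exRNaseA overlapped. Of 23 tested genes of oxidant handling 0 were called (median -0.0023, 12 negative). Prdx5, a peroxiredoxin, stood at 999.7 and 1002 TPM in mock and 987 TPM in both exRNaseA libraries. Its log2 change in counts was -0.074 (adjusted p = 0.643, edgeR), and that of Gsr, glutathione reductase, was 0.0028. Of 12 tested factors reported to act on oxidase gene promoters 0 were called (median 0.014, 5 negative). Spi1, which encodes PU.1, stood at 358 and 350 TPM in mock and 361 and 382 TPM in exRNaseA libraries (log2 change 0.043), and Irf2 had 0.014.

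**Figure D4:**
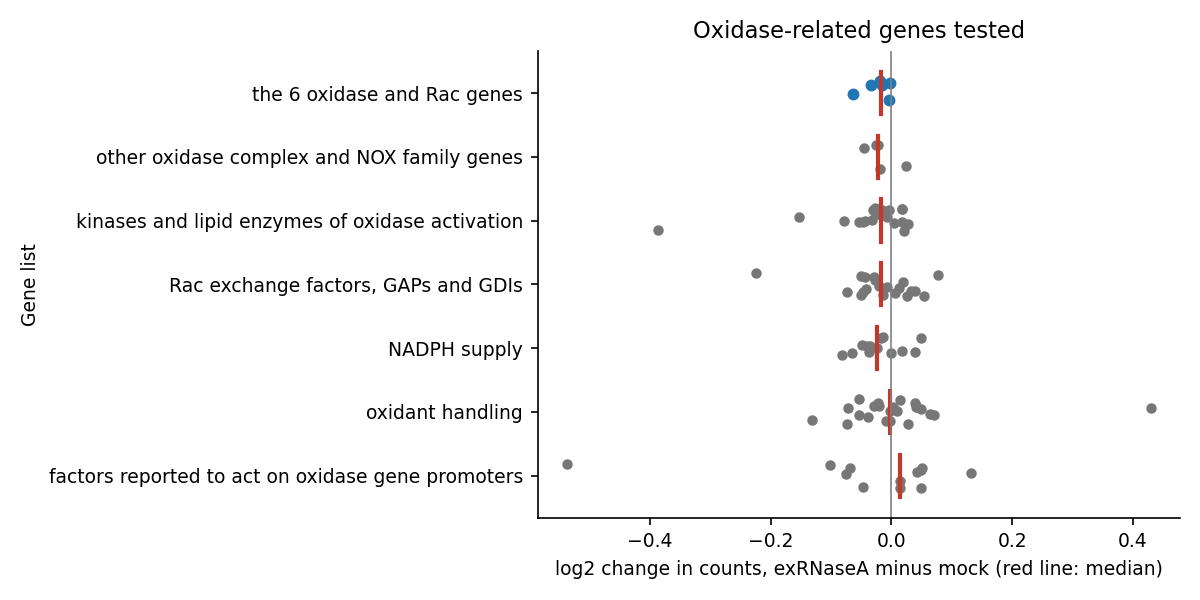
log2 change in counts, exRNaseA minus mock (horizontal axis), of each tested gene in 6 of the 7 lists and of the 6 oxidase and Rac genes, with a red line at each list's median. The medians lie between -0.024 and 0.014, and the points farthest out are Hoxa9 (-0.54) and Gpx3 (0.43), with mean levels of 0.655 and 1.32 TPM.

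The genes nearest to each oxidase gene were found by the root mean square difference of log2(TPM + 1) over the 4 libraries. This was taken among 20945 other protein-coding genes, and by construction it picks genes of like level. The nearest genes were Rpsa (0.015) and Hdc (0.023) for Cybb, Prdx6 (0.022) and Naca (0.032) for Cyba, and Cxcl2 (0.019) for Ncf1. They were Hspa5 (0.021) and Igsf6 (0.027) for Ncf4 and Wdr1 (0.013) and Xdh (0.014) for Rac1. Rac2 stood farthest from its nearest genes, Rpl41 (0.040) and Ncf1 (0.077).

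The small RNA libraries of the series gave another readout over the same loci. They comprise 9 groups of 1 library each, from HOXB8 cells (progenitors kept from maturing by estradiol), HOXB8 cells differentiated without it, or neutrophils. Besides input RNA there is RNA that was tagged with biotin through an azide sugar fed to the cells and caught on streptavidin beads, and RNA caught on beads of wheat germ agglutinin (WGA), a lectin. A further biotin library of differentiated cells was digested with PNGase F, which cuts N-glycans. Of 3226 sequences that the table places on the genome, 52.4% lay within a protein-coding gene, and 2 lay within an oxidase gene, both in Ncf4 on the forward strand of chromosome 15 (mm10). They are shown as the only fragments placed there, with no capitals since no part is marked.
Ncf4 fragment of 16 bases, chr15:78255474-78255489: gccatcatggatcgca
Ncf4 fragment of 24 bases, chr15:78256731-78256754: tgggggtgaggatggaggtgagga

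The shorter fragment stood at 0.643 RPM (reads scaled to the size of the library) in the neutrophil input and at 10.5 RPM after WGA capture from neutrophils, and was listed at 0 in the other 7 libraries. The longer one stood at 16.9 RPM after WGA capture from differentiated HOXB8 cells and at 0.322 RPM in the neutrophil input, and was listed at 0 elsewhere. The smallest value listed for the neutrophil input was also 0.322 RPM. The deposited small RNA data may hold only sequences above a read threshold in some library, which is not stated in the sources used here. Each fragment may then be listed because of the 1 WGA library where it is high. No enrichment over input is therefore read from these values. With 1 library per group there is no test. A stretch as short as 16 bases may occur elsewhere in the genome, and whether these fragments came from Ncf4 messages was not tested.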

How the data were processed

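Per the submitters' processing notes, STAR 2.4.2a, RSEM 1.3.3 and the build mm10 were used. The gene tables deposited by the authors hold RSEM's expected counts, TPM, FPKM and mean transcript length, per the file headers. The annotation release and strand setting are not given in the sources used here. Small RNA abundance was deposited as RPM.

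The genes, lists, tests and alternatives were chosen with earlier results of these data known. Of 55536 gene IDs 55450 had a symbol. Expected counts were rounded, edgeR 4.0.16 (filterByExpr, TMM factors 0.993 to 1.01) tested 14184 genes, and Benjamini-Hochberg adjustment was over all of them at 0.05. All 6 genes passed the filter. Wald standard errors and 95% intervals came from the quasi-likelihood fit, which was tested on simulated data. DESeq2 1.42.0 and limma 3.58.1 (log2 of TPM or FPKM plus 1, values of 1 or more in 2 libraries) were alternatives, as were other scalings and filters, the replicate number as a block and each library left out. Analyses used R 4.3.3 and Python 3.11.15.

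Besides the 6 genes, the rule named the 2 most abundant tested genes and the smallest p of each list and the 2 nearest genes of each oxidase gene. Values were known when Nox1, Nox3, Nox4, Duox1, Rac3, Cebpb, Hoxa9 and Gpx3 were picked out in the text. Not all genes named by this rule are reported here.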

Additional observations from a re-analysis of the deposited data

How the results depend on the processing

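Of the 6 oxidase genes 0 were called under each of the 17 alternatives, and the 6 log2 changes lay between -0.079 and 0.084 over 16 alternatives. In 27 of these 96 values the sign differed from the reported one, none of them called. Library totals gave 0.017 for Cyba, 0.014 for Rac1 and 0.0033 for Rac2. limma on log2(TPM + 1), with or without the filter, gave 0.017 for Cybb, 0.032 for Cyba, 0.010 for Ncf1, 0.010 for Rac1 and 0.084 for Rac2, and on log2(TPM + 0.1) 0.017, 0.033, 0.010, 0.010 and 0.084. On log2(FPKM + 1) Cybb had 0.0010, Cyba 0.017 and Rac2 0.068. With counts per kilobase of a fixed effective length, chosen after seeing the data, Rac2 had -0.014. With a library left out, the values ran from -0.025 to 0.024 for Cyba, -0.030 to 0.024 for Rac1 and -0.047 to 0.018 for Rac2.

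Over all genes edgeR called 13. DESeq2 called 8, the filter of 10 CPM in 2 libraries 7, no filter 149, limma on log2(TPM + 1) 7, on log2(TPM + 0.1) 8, on log2(FPKM + 1) 7, without the TPM filter 0, and on fixed-length values 7. Without the 5 genes that carry rRNA sequence 3 were called. Leaving out a library gave between 9 and 74 calls: 74 without mock replicate 1, 9 without mock replicate 2, 59 without exRNaseA replicate 1 and 29 without exRNaseA replicate 2. The cause was not tested. With the replicate block 55 genes were called and 0 of the 6. The replicate numbers are not known to pair the libraries, whose same-numbered deviations had a correlation of 0.0287 over 7847 genes. The mean subunit ratios and summed TPM moved by less than 1 SD under each alternative run, but most of these runs could not have moved them further. Leaving out 1 of 4 values cannot shift their mean by 1 SD. FPKM, another library scaling and removal of the 5 rRNA-sequence genes leave the ratios unchanged by construction. With a fixed effective length the mean Rac2 to Rac1 ratio was 3.359, against 3.367 in TPM. Among the 6, Cyba had the fewest reads and the widest interval.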
